A study of Homo sapiens with 15 samples.

Results

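The genes described here are the heat-shock factors HSF1 and HSF2, the small heat-shock proteins HSPB1 and HSPB8, the HSP70 co-chaperone BAG3 and the polyubiquitin gene UBB. They were chosen by gene symbol as 6 of the 59608 genes in the expression table, and all 6 passed the filter on low values. RNA was taken from MDA-MB-231, an established human breast cancer cell line without estrogen receptor, grown in 2D culture. For 6 h, dishes received 0.1% DMSO (vehicle) or ZJ-101 at 0.5, 5, 50 or 500 nM, with 3 dishes and thus 3 libraries per group (15 in all). ZJ-101 is a small molecule derived from a marine natural product. The labels give no DMSO content for the ZJ-101 dishes. The same line was used throughout, so the values describe 1 cell line at 1 time point. Here the 4 doses against DMSO ask whether RNA levels of these 6 genes had changed, at a time the study chose to precede the change in cell shape.

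HSF1 is the transcription factor that drives the heat-shock response. In resting cells it is held inactive by chaperones and, when proteins misfold, it is released, forms trimers and binds heat-shock elements, which are arrays of inverted nGAAn units upstream of chaperone genes. Its activation is therefore mostly a change in the protein and not in its own transcript. Small heat-shock proteins bind unfolding proteins without ATP, BAG3 links HSPB8 and HSP70 to the removal of aggregates, and polyubiquitin genes supply ubiquitin that marks proteins for degradation.

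At 500 nM, HSPB1, UBB, HSPB8 and BAG3 rose, by 1.16-fold to 1.51-fold over DMSO, while HSF1 and HSF2 did not pass the test. These were 4 of the 6 genes, where 7.69% of the 13561 genes tested rose in this comparison (limma on log2(normalized count + 1), Benjamini-Hochberg adjusted p under 0.05). None of the 6 fell by this test, where 10.1% of all genes fell. 1 of them, HSF2, was lower at an unadjusted p under 0.05, and neither edgeR nor DESeq2 called a fall. Throughout, a level is the normalized count, the reads of a gene divided by the size factor of the library, and a change is a log2 fold change on the log2(normalized count + 1) scale with its standard error (SE).

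The stretch directly before the start of HSPB1 and that of HSPB8 each hold 1 copy of the pair of units written GAANNTTC, and that of BAG3, which rose too, holds none. Both printed pairs have GAA first, and the capitals mark them. Each line gives 250 bases on the plus strand, 5′ to 3′, from RefSeq on GRCh38.p14, at chr7:76302423-76302672 for HSPB1, chr12:119178681-119178930 for HSPB8 and chr10:119651130-119651379 for BAG3.
HSPB1: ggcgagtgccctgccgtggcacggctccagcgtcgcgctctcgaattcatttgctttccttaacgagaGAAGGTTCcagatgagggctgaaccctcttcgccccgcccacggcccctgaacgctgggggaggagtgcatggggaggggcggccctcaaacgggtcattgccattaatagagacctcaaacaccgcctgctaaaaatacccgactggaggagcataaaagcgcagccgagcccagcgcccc
HSPB8: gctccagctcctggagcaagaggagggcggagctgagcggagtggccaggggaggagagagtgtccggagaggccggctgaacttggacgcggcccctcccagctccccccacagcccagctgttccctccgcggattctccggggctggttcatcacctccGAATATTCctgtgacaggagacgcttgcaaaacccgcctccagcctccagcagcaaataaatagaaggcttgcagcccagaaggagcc
BAG3: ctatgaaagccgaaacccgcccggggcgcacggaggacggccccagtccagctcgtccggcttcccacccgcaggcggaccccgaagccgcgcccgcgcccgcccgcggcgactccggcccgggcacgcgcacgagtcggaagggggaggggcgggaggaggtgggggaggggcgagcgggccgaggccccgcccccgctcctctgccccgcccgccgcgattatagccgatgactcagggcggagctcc

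In the search, a window ran from 250 bases before to 50 bases after a RefSeq gene start, position 1 being the first base of the gene. GAANNTTC and TTCNNGAA are each their own reverse complement, so a search of 1 strand covers both. A match of each kind can share a unit, which makes 3 alternating units in a row. Only these exact letters inside the windows were sought, so inexact units and sites farther from the start were not looked for. The pair in HSPB1, GAAGGTTC, began at position -182. In HSPB8 a pair, GAATATTC, began at -88, and another began at 5, inside the gene. No match was found in 2 windows of HSF2, 1 of BAG3 and 2 of UBB, nor in 300 bases around the annotated start of the UBB transcript (chr17:16380841-16381140, hg38). Sequence was matched for 5 of the 6 genes. At least 1 pair stood in 13.5% of the 35116 windows of all genes and in 16.2% of the 27305 genes with a window, so 2 of 5 genes is a description of these windows and of no binding. None of the 5 held 3 units in a row, which 0.608% of all genes did. Of 22 other heat-shock target genes with a window, listed below, 15 held at least 1 pair and 8 held 3 units in a row. Of the 8, HSPA6, HSPA8, HSP90AA1, HSP90AB1, DNAJA1, HSPD1 and CHORDC1 rose at 500 nM, where 7.69% of all genes tested did. The remaining gene, SERPINH1, did not pass the test at 500 nM (-0.07, limma adjusted p = 0.24).

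**Figure D1:**
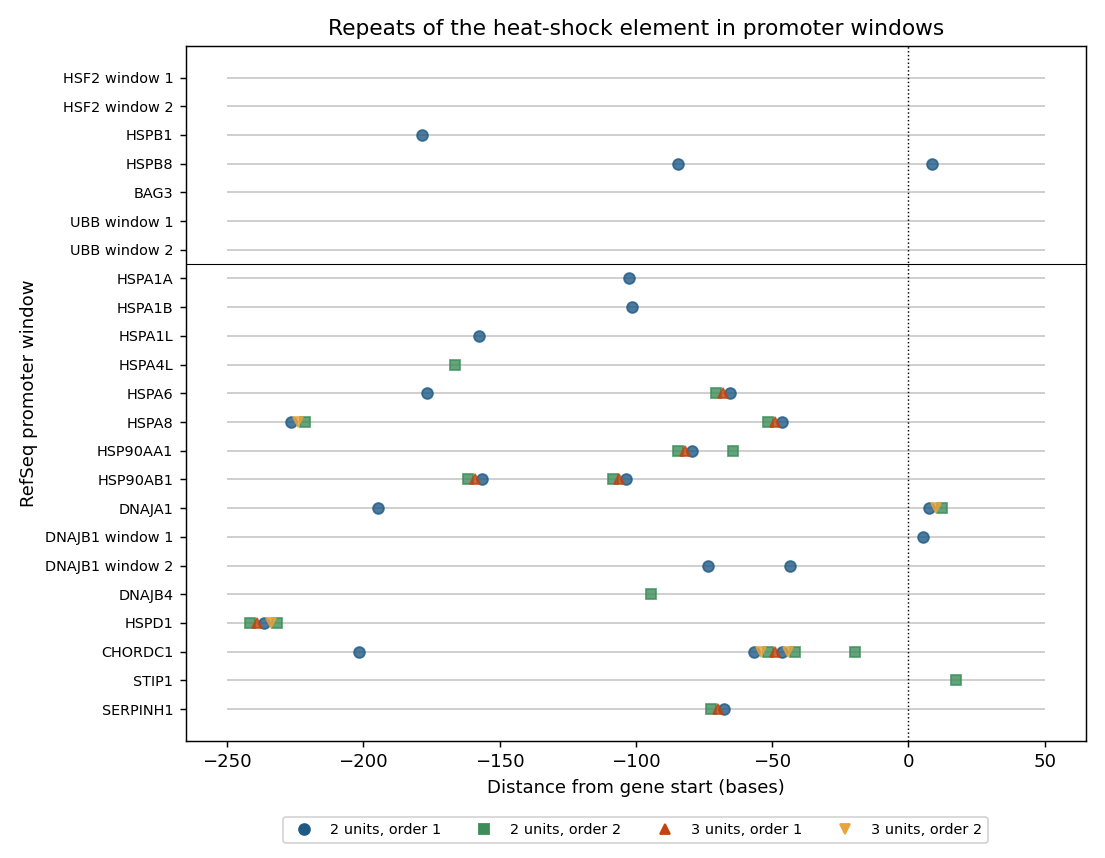
Distance in bases from the gene start (x axis) of each match to repeats of the heat-shock element in RefSeq promoter windows (rows), for the 7 windows of HSF2, HSPB1, HSPB8, BAG3 and UBB above the line and for windows of other heat-shock target genes that hold a match below it. Circles (order 1) mark pairs with the GAA unit first, squares (order 2) pairs with the TTC unit first, and triangles 3 units that start with TTC (up, order 1) or GAA (down, order 2). HSPB1 has 1 match and HSPB8 has 2, and all windows drawn with 3 units in a row belong to the other targets.

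The libraries held between 12415519 and 15284762 reads on genes, with size factors of 0.916 to 1.13 and 0.889% to 2.06% of reads on mitochondrial genes. Replicates were separate dishes. The line's markers VIM, CD44, EGFR, CAV1, AXL and KRT18 had mean levels between 4427 and 14566. Of genes listed as absent or low in it, ESR1 stood at 0.744, KRT5 at 0.0687, PGR at 13.7 and FOXA1 at 22.1, but GATA3 at 145, CDH1 at 147 and EPCAM at 290. Of genes of other cell types, PTPRC (leukocytes) stood at 1.43 and ALB (liver) at 0.315, but PECAM1 (endothelium) at 250.8. ZJ-101 0.5 nM replicate 2 stood apart: its counts differed from those of the other 2 replicates of its group with a chi-square of 10.2 and 15.1 for each degree of freedom, and all other pairs within a group gave 1.96 to 5.81. It was the highest library of its group for HSF1, HSF2, HSPB1, BAG3 and UBB, and log2 fold changes without it are given where they bear on a result.

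HSF1, the master regulator of the response, lies on chromosome 8 at 144291591 to 144314720 on the plus strand (GRCh38, GENCODE release 44). Its level was 1940, 1883 and 1944 in the 3 DMSO libraries. At 500 nM it was 1994, 2044 and 2049. The libraries at 500 nM all lay above those in DMSO, and those at 5 nM (1979, 2039 and 2034) did too, whereas those at 0.5 nM (1896, 1988 and 1895) and 50 nM (1923, 2053 and 1912) overlapped them. The difference at 500 nM was 0.08 ± 0.04 (SE), a 1.06-fold higher level with an interval of 0.994-fold to 1.12-fold (95%), and did not pass the test (adjusted p = 0.22). Its 1861 to 2019 reads per DMSO library give a counting error of 2.28%, which is larger than the 1.79% spread of those libraries. An exonic stretch of 6.42% of the HSF1 transcript overlaps genes on the other strand, DGAT1 among them.

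HSF2 encodes a factor that binds the same elements and can form mixed trimers with HSF1. The gene lies on chromosome 6 at 122399551 to 122433119 on the plus strand. Its level was 390, 447 and 450 in DMSO and 397, 363 and 386 at 500 nM. These groups overlapped, since DMSO replicate 1 lay within the range at 500 nM. The means were 429 ± 33.9 and 382 ± 17.5 (SD, n = 3 each), a change of -0.17 ± 0.08 (SE) with an unadjusted p of 0.046 and an adjusted p of 0.16 in limma. At the lower doses the level was 390, 449 and 399 (0.5 nM), 404, 422 and 369 (5 nM) and 422, 429 and 391 (50 nM). All of these groups overlapped DMSO, with means within 1 SD of the DMSO mean. The HSF1 level over the HSF2 level within a library had a log2 ratio of 2.16 ± 0.13 in DMSO and 2.41 ± 0.08 at 500 nM (SD, n = 3 each). These did not overlap, but the exact two-sided permutation test gave p = 0.1, the smallest that 3 against 3 libraries allow, and 0.2 after adjustment over the 4 ratios tested.

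**Figure D2:**
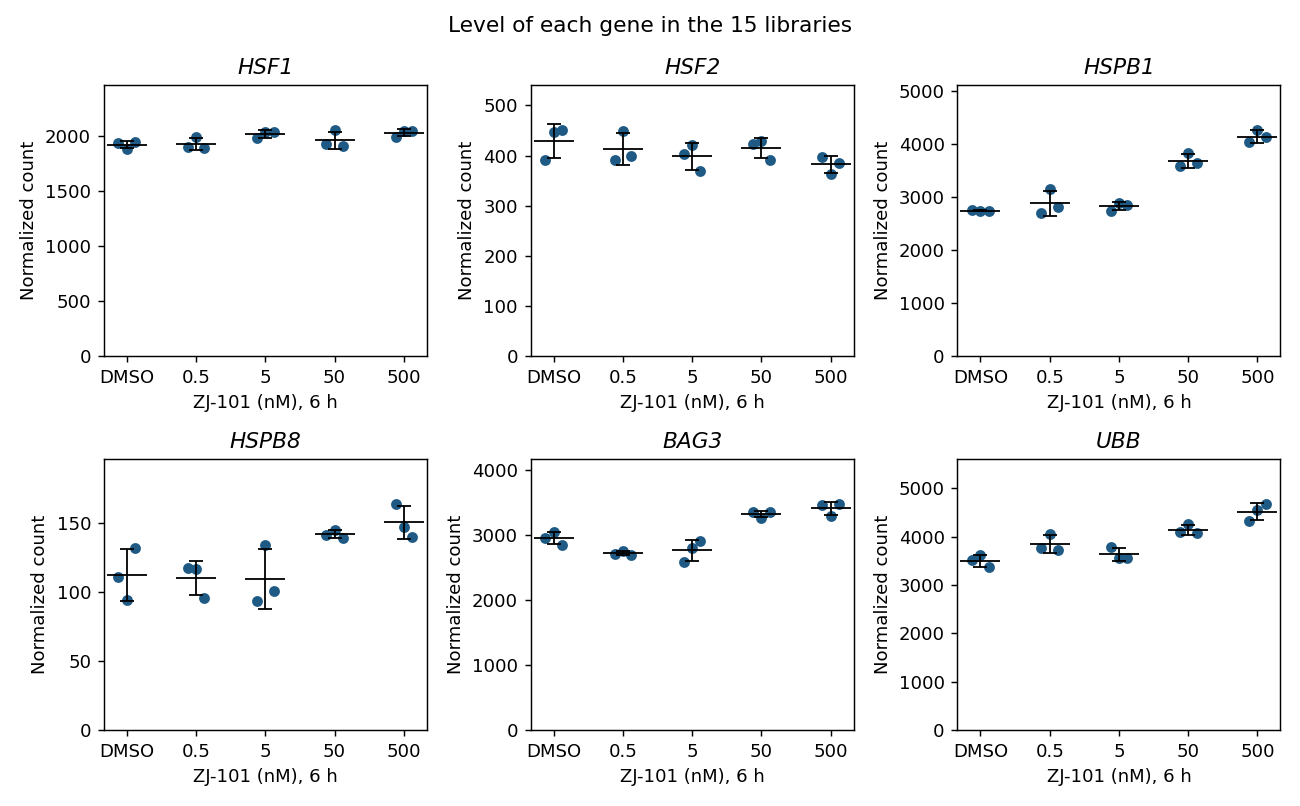
Normalized count (y axis, from 0) of each gene in the 15 libraries by dose of ZJ-101 in nM (x axis), where points are libraries, the horizontal bar is the group mean and the error bar is 1 SD (n = 3). HSPB1, BAG3 and UBB step up between 5 and 50 nM, HSPB8 (0.39, adjusted p = 0.14) did not pass the test at that step, HSF1 stays between 1883 and 2053, and HSF2 stays between 363 and 450.

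HSPB1 (HSP27), a chaperone that also acts on the actin skeleton, had the largest change of the 6. It lies on chromosome 7 at 76302673 to 76304295 on the plus strand and has 3 exons. Its level in DMSO was 2747, 2738 and 2730. At 50 nM it was 3582, 3832 and 3636, and at 500 nM 4027, 4256 and 4125. Every library at either of these doses lay above every library at DMSO, 0.5 nM and 5 nM, and those at 500 nM lay above those at 50 nM. The mean went from 2738 ± 8.67 in DMSO to 4136 ± 115 at 500 nM (SD, n = 3 each), a change of 0.59 ± 0.05 (SE; 1.51-fold, limma adjusted p = 7.6e-08). At 50 nM the change was 0.43 ± 0.05 (SE; adjusted p = 1.3e-05), which is 71.8% of that at 500 nM on the log2 scale.

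At the low doses HSPB1 had levels of 2699, 3149 and 2803 (0.5 nM) and 2742, 2885 and 2854 (5 nM), and neither group passed the test. The high value at 0.5 nM was in replicate 2, the library that stood apart. With that library the difference from DMSO was 0.07, and without it 0.0064. The DMSO spread of HSPB1, a coefficient of variation of 0.317%, was below the 1.91% that counting alone gives, so it is too small to serve as an error of its own, and the test used a spread shared over the 5 groups and moderated over all genes.

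HSPB8 (HSP22), which acts with BAG3, was the lowest of the 6 per kilobase of transcript. Its longest annotated span lies on chromosome 12 at 119171555 to 119224855 on the plus strand, and the start used for the sequence above is that of its main transcript. The level was 111, 94.1 and 132 in DMSO, 142, 145 and 139 at 50 nM and 164, 148 and 140 at 500 nM. All libraries at the top 2 doses lay above all DMSO libraries. At 0.5 nM (117, 117 and 95.8) and at 5 nM (93.9, 135 and 101) they overlapped DMSO. The mean rose from 112 ± 18.9 to 151 ± 12.1 at 500 nM (SD, n = 3 each), a change of 0.43 ± 0.14 (SE; 1.35-fold, interval 1.10-fold to 1.65-fold, limma adjusted p = 0.042). HSPB8 did not pass at 50 nM (0.35 ± 0.14, adjusted p = 0.19). With 93 to 161 reads per library the counting error alone was 8.02% to 9.55%. The call at 500 nM was lost without any 1 of DMSO replicates 1 and 2, 50 nM replicates 1 and 3 and all 3 replicates at 500 nM, where the change ranged from 0.31 to 0.48 and the adjusted p from 0.052 to 0.21. DESeq2 gave 0.42 with an adjusted p of 0.051.

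Whether HSPB1 and HSPB8 differed in their change was not settled, since their ratio within a library overlapped between DMSO and 500 nM. Besides, 3 against 3 libraries cannot give an exact permutation p below 0.1. Within a library, and not per length, the log2 ratio of HSPB1 over HSPB8 was 4.61 ± 0.24 in DMSO and 4.77 ± 0.14 at 500 nM (SD, n = 3 each), a difference of 0.16 (exact permutation p = 0.5, adjusted 0.5). It was 0.04 without DMSO replicate 3 and 0.29 without DMSO replicate 2. Of 8 other small heat-shock protein genes, 1, HSPB11, passed the filter on low values, with 585 in DMSO and 566 at 500 nM (change -0.05, adjusted p = 0.79; 0 genes at an unadjusted p under 0.05 and 0 by edgeR or DESeq2). CRYAA, HSPB2, HSPB3 and HSPB7 were at 0 in all libraries. CRYAB, HSPB6 and HSPB9 had means between 0.399 and 1.28.

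BAG3 binds HSP70 through its BAG domain and passes clients to autophagy. The gene lies on chromosome 10 at 119651380 to 119677819 on the plus strand. Its level was 2961, 3043 and 2849 in DMSO, 3346, 3266 and 3348 at 50 nM and 3460, 3293 and 3476 at 500 nM. The top 2 doses overlapped each other and both lay wholly above DMSO. The rise at 500 nM was 0.21 ± 0.05 (SE; 1.16-fold, limma adjusted p = 0.0028). At 50 nM it was 0.17 ± 0.05 (SE; adjusted p = 0.029), and this call was lost without any 1 of DMSO replicates 1 and 3 and 50 nM replicates 1 and 3 (0.15 to 0.17, adjusted p = 0.082 to 0.14).

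At the lowest dose BAG3 lay on the other side of DMSO. Its 0.5 nM libraries, at 2713, 2753 and 2690, were all below the lowest DMSO library. The difference was -0.12 ± 0.05 (SE; unadjusted p = 0.018, adjusted p = 0.23) and did not pass the test. Without replicate 2 of that group it was -0.13 (adjusted p = 0.24). At 5 nM the levels of 2578, 2803 and 2905 overlapped DMSO, with a change of -0.10 ± 0.05 (SE; adjusted p = 0.38). From 5 to 50 nM BAG3 rose by 0.27 ± 0.05 (SE; limma adjusted p = 0.0012). This estimate was above its rise over DMSO at either top dose, but the difference between these rises was not tested.

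The ratio of BAG3 to HSPB1 within a library was lower at 500 nM than in DMSO, a difference that did not pass the test. On the log2 scale, and not per length, the ratio was 0.11 ± 0.05 in DMSO and -0.28 ± 0.08 at 500 nM (SD, n = 3 each), with no overlap and a difference of -0.39 (exact permutation p = 0.1, the smallest possible here, adjusted 0.2). For BAG3 over HSPB8 the ratio was 4.71 ± 0.29 and 4.49 ± 0.12 (SD, n = 3 each), which overlapped (exact permutation p = 0.3, adjusted 0.4). The difference of -0.22 became -0.08 without DMSO replicate 2 and -0.37 without DMSO replicate 3.

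UBB encodes a chain of ubiquitin units that is cut into free ubiquitin. It lies on chromosome 17 at 16380798 to 16382745 on the plus strand, with 2 exons in its main transcript. Its level was 3509, 3621 and 3369 in DMSO, 4097, 4249 and 4069 at 50 nM and 4330, 4546 and 4674 at 500 nM. The 3 groups did not overlap one another. The mean rose from 3500 ± 126 to 4517 ± 174 at 500 nM (SD, n = 3 each), a change of 0.37 ± 0.05 (SE; 1.29-fold, limma adjusted p = 1.1e-05), and at 50 nM the change was 0.24 ± 0.05 (SE; adjusted p = 0.0022). At 0.5 nM the levels were 3769, 4058 and 3717, all above DMSO, with a change of 0.14 ± 0.05 (SE; unadjusted p = 0.0083, adjusted p = 0.17). Without replicate 2 of that group it was 0.10 (adjusted p = 0.35). At 5 nM the levels of 3775, 3557 and 3558 overlapped DMSO (0.05, adjusted p = 0.70).

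Of the bases in the UBB transcript, 49.4% lie in exons of an antisense RNA on the other strand. The sources used here do not state a strand setting for the counting. How reads over these shared bases were counted, or whether they were left out, is therefore not known. The UBB level per kilobase given below divides by the full transcript length and carries this uncertainty. Another stretch of chromosome 17, at 22204085 to 22205094, matched 84.0% of the transcript with 95.3% identity. It lies in the pseudogene UBBP4, which was listed at 6.1 or less in every library. Stretches of 150 bases were shared with the antisense RNA and with no other annotated gene.

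**Figure D3:**
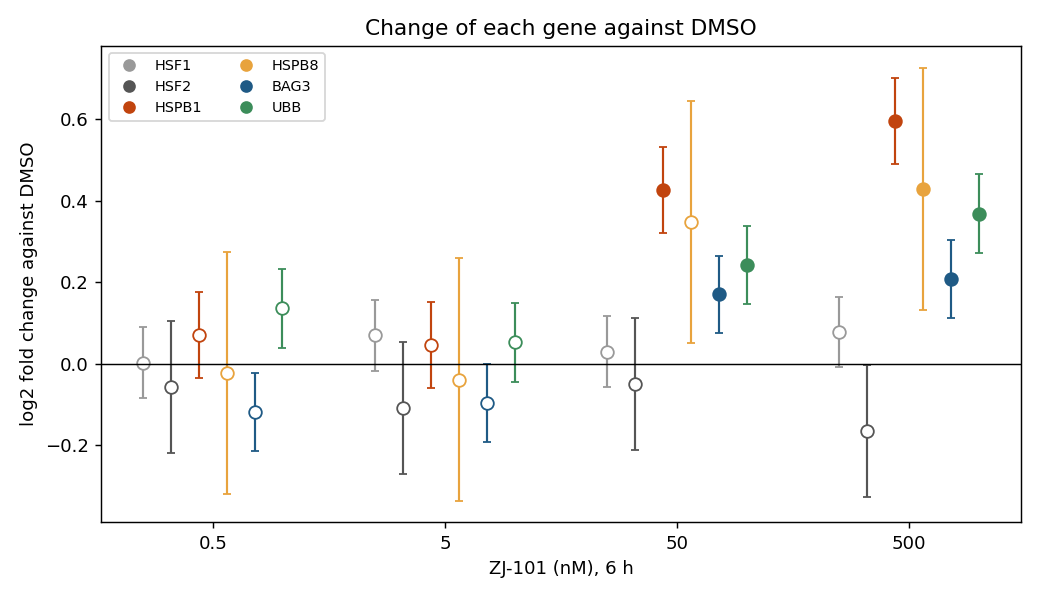
log2 fold change against DMSO (y axis) of each gene at 4 doses of ZJ-101 in nM (x axis), with 95% intervals from the limma fit, where filled points passed an adjusted p of 0.05 and open points did not. HSPB1, BAG3 and UBB are filled at 50 nM, HSPB8 joins them at 500 nM, and no point is filled at 0.5 or 5 nM.

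Across the doses, the same 6 genes passed the test as follows. At 0.5 nM none rose or fell, where 0.251% of all genes rose and 0.922% fell. UBB was higher and BAG3 lower at an unadjusted p under 0.05, each with libraries that did not overlap DMSO, as held for 7.43% (higher) and 10.7% (lower) of all genes. At 5 nM none rose or fell either (0.465% and 1.71% of all genes), BAG3 was lower at an unadjusted p under 0.05, and HSF1 was the 1 gene whose libraries all lay above DMSO (10.5% of all genes). Neither edgeR nor DESeq2 called any of the 6 at these 2 doses. At 50 nM, 3 rose and 0 fell (2.29% and 3.71% of all genes), and 4 lay wholly above DMSO (11.6%). HSPB8 was the fourth. By edgeR and DESeq2 also 3 rose and 0 fell at 50 nM. At 500 nM, 5 of the 6 lay wholly above DMSO (18.9%), HSF1 included.

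HSPB1, BAG3 and UBB rose from 5 to 50 nM. The rise of HSPB1 was 0.38 ± 0.05 (SE; limma adjusted p = 9.6e-05), that of BAG3 is given above, and that of UBB was 0.19 ± 0.05 (SE; adjusted p = 0.020), which are 3 of 6 genes against 2.62% of all genes. None of the 6 fell at this step by limma, edgeR or DESeq2, or at an unadjusted p under 0.05 (2.39% of all genes fell). The libraries of all 4 genes that rose at 500 nM lay wholly above those at 5 nM (11.9% of all genes). HSPB8, at 0.39 ± 0.14 (SE), did not pass (adjusted p = 0.14). The UBB call was lost without any 1 of 5 nM replicates 2 and 3 and 50 nM replicates 1 and 2 (0.17 to 0.20, adjusted p = 0.053 to 0.093).

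On either side of that step none of the 6 passed. From 0.5 to 5 nM, 0.0295% of all genes rose and 0.0885% fell, and none of the 6 had an unadjusted p under 0.05. From 50 to 500 nM, 0.479% of all genes rose and 1.8% fell, and HSPB1 (0.17 ± 0.05, adjusted p = 0.10) and UBB (0.13 ± 0.05, adjusted p = 0.22) were higher at an unadjusted p under 0.05. Both lay wholly above their 50 nM libraries, as 9.67% of all genes did. HSPB1 passed this step once 0.5 nM replicate 2 was left out of the fit (adjusted p = 0.010). edgeR and DESeq2 called none of the 6 in these steps. Along the rank of the dose, from DMSO as 0 to 500 nM as 4, the slope per rank was 0.15 ± 0.02 (SE) for HSPB1, 0.12 ± 0.03 for HSPB8, 0.08 ± 0.01 for UBB and 0.07 ± 0.02 for BAG3. Over the 12 treated libraries alone the BAG3 slope was 0.12 and that of UBB 0.09, so their order turned. With DMSO in the fit, those 4 passed the test (adjusted p = 5.3e-06, 0.014, 1.7e-04 and 0.0066), where 8.23% of all genes had a rising slope and 9.33% a falling one. The HSPB8 slope was lost without 500 nM replicate 1 (0.11, adjusted p = 0.055). HSF1 (0.02, adjusted p = 0.21) and HSF2 (-0.03, adjusted p = 0.22) did not pass.

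Compared per length, the 6 genes spanned a wide range. Per kilobase of the MANE Select transcript, the DMSO level was 3751 ± 135 (SD, n = 3) for UBB and 3524 ± 11.2 for HSPB1. It was 1152 ± 38.1 for BAG3, 901 ± 16.1 for HSF1, 165 ± 13.1 for HSF2 and 60.4 ± 10.2 for HSPB8. The libraries of neighbours in this order did not overlap. At 500 nM HSPB1, at 5323 ± 148 (SD, n = 3), lay above UBB, at 4841 ± 186 (SD, n = 3). With the merged length of all annotated exons UBB stayed above HSPB1 at 500 nM (2882 and 2548), so that order depends on the length chosen.

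**Figure D4:**
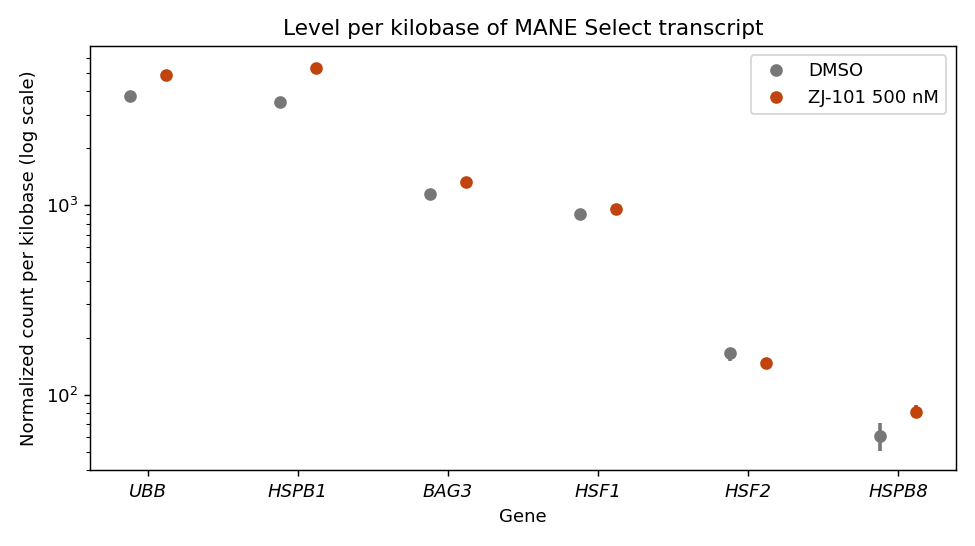
Normalized count per kilobase of MANE Select transcript (y axis, log scale) for the 6 genes ordered by their DMSO level, where points are group means and vertical lines span the lowest to the highest of 3 libraries. UBB and HSPB1 stand above 3500 in DMSO, HSPB8 near 60, and HSPB1 passes UBB at 500 nM.

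Other genes of the pathway were read from lists of known roles. Of 5 other HSF genes and HSF-binding proteins, 4 were tested, with 0 rises and 0 falls at 500 nM and a median change of 0.06 (limma; 0 at an unadjusted p under 0.05, 0 by edgeR and DESeq2), where the median over all genes was 0.0027. Over all genes tested, 7.69% rose and 10.1% fell at 500 nM. HSBP1, a small protein that binds HSF1 trimers, had means of 1817 in DMSO and 1816 at 500 nM. All 8 genes for proteins that modify HSF1 or hold it were tested, with 0 rises, 0 falls and a median of -0.07. Among them SIRT1, a deacetylase that prolongs DNA binding by HSF1, was lower at an unadjusted p under 0.05 (685 in DMSO, 621 at 500 nM, -0.14, adjusted p = 0.10), and edgeR and DESeq2 called none.

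Of the 5 other BAG genes, BAG2 rose at 500 nM, from 1466 ± 23.5 to 2017 ± 85.1 (SD, n = 3 each), a change of 0.46 ± 0.06 (SE; adjusted p = 1.4e-05). BAG2 inhibits the ubiquitin ligase CHIP. The other 4 did not pass, and the median of the 5 was 0.03, where 7.69% of all genes rose and 10.1% fell. Among 10 genes for partners of BAG3, 9 were tested, 6 rose, 0 fell and the median was 0.29, where 7.69% of all genes rose and 10.1% fell. Among those that rose were HSPA8, the constitutive HSP70 (30834 to 72683, 1.24), and the actin cross-linker FLNC (3425 to 5783, 0.75). 1 gene, MAP1LC3B, was lower at an unadjusted p under 0.05 (1365 to 1235, -0.14, adjusted p = 0.12), and neither edgeR nor DESeq2 called a fall.

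Of 11 genes of ubiquitin supply other than UBB, 10 were tested, 1 rose, 0 fell and the median was 0.01. Over all genes tested, 7.69% rose and 10.1% fell, so 1 of 10 is near the share of all genes. RPS27A, which encodes ubiquitin fused to a ribosomal protein, had 4834 ± 119 with DMSO and 4897 ± 218 at 500 nM (SD, n = 3 each), a difference of 0.02 ± 0.08 on the log2 scale (SE; limma adjusted p = 0.91).

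In the list of 23 other heat-shock target genes, 20 were tested and 19 rose at 500 nM, with 0 falls and a median of 0.65, where 7.69% of all genes rose and 10.1% fell. The largest changes were those of HSPA6, a strictly inducible HSP70 (4.61 to 36.1, 2.83), HSPH1 (3142 to 8574, 1.45) and HSPA8. HSPA6 stood near the filter on low values, with a mean of 14.3 over the 15 libraries. Its change ranged from 2.13 to 2.97 under the other settings of the processing. SERPINH1, the collagen chaperone, did not pass (-0.07, adjusted p = 0.24). At 50 nM 18 rose (2.29% of all genes), and at 5 nM 2 did (0.465%). HSPA8 stands in 2 of these lists. The inducible genes HSPA1A and HSPA1B, at 3.22 or less in every library, were too low to be tested. HSPA1L, at 0 in every library, was not tested either. HSPA1A and HSPA1B are near-identical copies, so their counts are uncertain. Within this family of targets the rises of HSPB1, HSPB8 and UBB lay below the median of the list. That of BAG3 (0.21 ± 0.05, SE) lay below every called member. The smallest of these was PTGES3 at 0.22 ± 0.05 (SE), and its gap to BAG3 is smaller than either error. In these lists, genes given here that are not among the 3 largest changes past the threshold were named after their values had been seen.

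**Figure D5:**
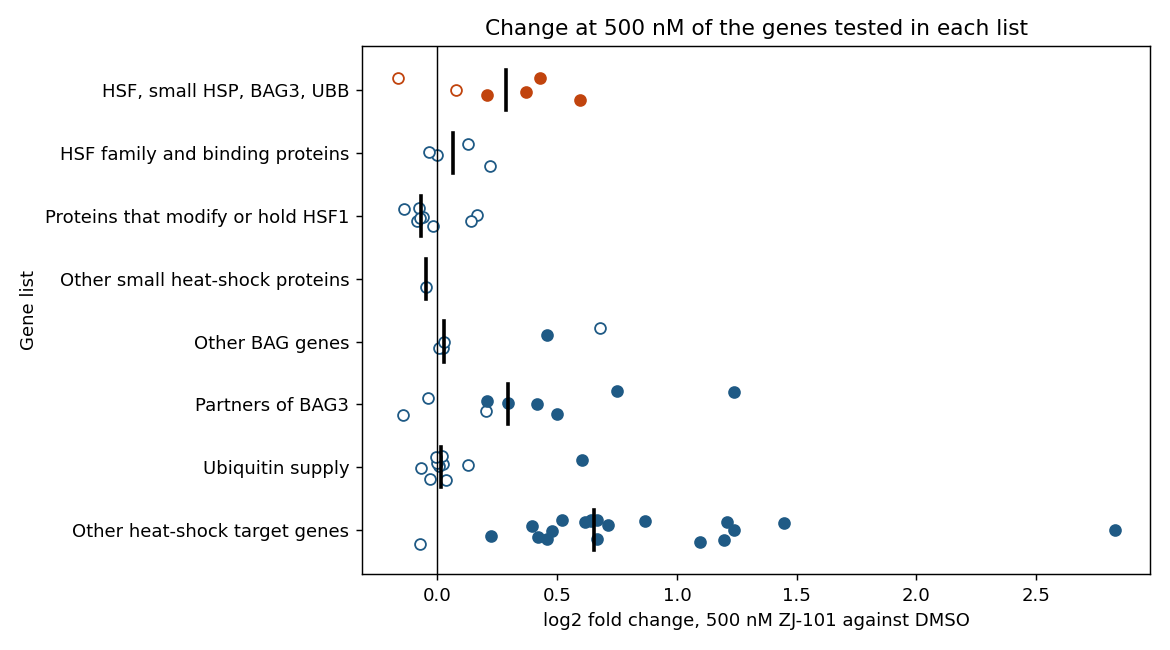
log2 fold change at 500 nM ZJ-101 against DMSO (x axis) of each gene tested in 8 gene lists (rows), where filled points passed an adjusted p of 0.05, the vertical bar is the list median and the vertical scatter within a row carries no value. The 6 genes of the top row are shown beside 7 lists of other pathway genes, and 19 of 20 other heat-shock targets are filled.

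The genes whose pattern over the 15 libraries was most like that of each gene were found by Pearson correlation of log2(normalized count + 1), as a description over libraries that share the 5 doses. For HSPB1 they were HSP90AA1 (r = 0.98), MFSD2A (0.97) and PWWP3A (0.97). HSP90AA1, the inducible HSP90, went from 43955 in DMSO to 100873 at 500 nM. For UBB they were CACYBP (r = 0.96), FHL2 (0.94) and CNIH1 (0.94). For BAG3 they were PLXNB2, CEP41 and CYP4V2 (r = 0.92 each), and for HSPB8 ZNF703 (0.93), CDCA7 (0.91) and TMEM209 (0.89). The factors had lower values, with CALHM3 (r = 0.81) first for HSF1 and WTAP (0.87) first for HSF2.

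Among the 6 genes, HSPB1 correlated with UBB at r = 0.93, with BAG3 at 0.86 and with HSPB8 at 0.79 over the 15 libraries. Once each group's mean was taken out, these were 0.51, 0.14 and 0.20, so the shared pattern lay mostly between the doses. HSF1 and HSPB1 had r = 0.51 over all libraries and 0.79 within the groups. The latter was the highest within-group value of all pairs, and the lowest was -0.40 (HSPB8 with UBB). For HSF1 with the other genes it lay between 0.01 (BAG3) and 0.38 (HSPB8). The library that stood apart, 0.5 nM replicate 2, was the highest of its group for both HSF1 and HSPB1. The correlation was not computed without it.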

How the data were processed

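RNA-seq was analysed for 15 libraries of MDA-MB-231 cells at 6 h, 3 per group. The authors prepared poly-A libraries, used HISAT2 (hg38) for alignment and HTSeq for counting, and scaled the counts by DESeq2 size factors, per the labels and the study's methods. The strand setting, the tool versions and the annotation release are not given in the sources used here. The deposited signal values are thus normalized counts, for 59608 genes. A further 1 line names no gene and was dropped. Dividing by the smallest step in a library gave whole reads for 100% of values within 0.001, and the largest distance from a whole read was 4.34e-05.

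Groups were taken from the labels. The main test was limma 3.58.1 (R 4.3.3) with a variance trend on log2(normalized count + 1) for 13561 genes (mean level 10 or higher), with the 5 groups in 1 fit (10 residual degrees of freedom) and Benjamini-Hochberg adjustment over all genes tested at 0.05. Contrasts were each dose against DMSO, the 3 steps between neighbouring doses and the slope on dose rank. The 4 ratios between genes within a library were compared by exact two-sided permutation tests. Both edgeR 4.0.16 and DESeq2 1.42.0 were run on the recovered reads as alternatives, and at 500 nM edgeR called 1067 genes higher and 1365 lower, against 1043 and 1366 by limma. Counting errors cover counting only.

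Every gene of the set is named, with the 3 largest rises and falls at 500 nM past the threshold in each list of other pathway genes and the 3 genes with the highest correlation to each. Some genes that this rule gives are not reported here. The genes, the lists and the tests were chosen with earlier results of these data known. Positions and lengths were from GENCODE release 44 on GRCh38, copies were sought with minimap2 2.31-r1302, and promoter windows were from RefSeq on GRCh38.p14.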

Additional observations from a re-analysis of the deposited data

How the results depend on the processing

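Alternatives were other pseudocounts (0.5 and 5), no filter or a mean of at least 50, a replicate block, TMM scaling, equal totals, edgeR, DESeq2, smaller sets of libraries and each library left out. Of 1180 values of the 6 genes under them, 1156 stayed on their side of the threshold, 21 lost it and 3 gained it. None that passed changed sign, and 17 of those that did not pass changed sign. HSPB1, UBB and BAG3 at 500 nM passed under every alternative run. The HSPB8 rise at 500 nM was lost with no filter on low values (0.43, adjusted p = 0.066), with a replicate block (0.43, adjusted p = 0.052) and with DESeq2 (0.42, adjusted p = 0.051). With no filter, the BAG3 rise at 50 nM (0.17, adjusted p = 0.075) and the UBB step from 5 to 50 nM (0.19, adjusted p = 0.050) were lost as well. More genes were tested there. The replicate block gained the HSPB1 step from 50 to 500 nM (0.17, adjusted p = 0.047) and, beside HSPB8 at 500 nM, changed no other call of the 6 genes. No pairing by replicate number was seen in the correlations between deviations of same-numbered samples. None of the 30 was above 0.1 (-0.09 to 0.10), and 7 of 15 samples correlated best with their own number. With 3 libraries per group these values cannot settle whether dishes were handled in pairs.

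With each library left out in turn, HSPB8 at 500 nM ranged from 0.31 to 0.55, its step from 5 to 50 nM from 0.28 to 0.54 (passing without 5 nM replicate 2, adjusted p = 0.043) and its slope from 0.11 to 0.15. BAG3 at 50 nM ranged from 0.15 to 0.19, the UBB step from 5 to 50 nM from 0.17 to 0.22 and the HSPB1 step from 50 to 500 nM from 0.15 to 0.20. The BAG3 slope was 0.12 (adjusted p = 1.5e-04) over the 12 treated libraries alone, against 0.07 with DMSO. The difference in the ratio of BAG3 over HSPB1 lay between -0.42 and -0.34, that of HSPB1 over HSPB8 between 0.04 and 0.29 and that of BAG3 over HSPB8 between -0.37 and -0.08. Among the partners of BAG3, genes that fell at 500 nM numbered 0 to 1, the 1 appearing without 0.5 nM replicate 2. In the fit on the 6 libraries of 500 nM and DMSO alone, 1 partner of BAG3 and 1 gene for proteins that modify or hold HSF1 fell. The cause of these changes was not tested.

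Chosen after seeing the data, merged exon length gave levels per kilobase in DMSO and at 500 nM of 362 and 382 for HSF1, 1687 and 2548 for HSPB1, 31.4 and 42.1 for HSPB8, 1078 and 1246 for BAG3 and 2233 and 2882 for UBB. HSF2 stayed within 1 SD. Counts over all genes moved by more than 1.5 times at the smaller contrasts: rises numbered 34 at 0.5 nM (6 to 113 under the alternatives), 63 at 5 nM (24 to 315), 311 at 50 nM (197 to 539), 4 from 0.5 to 5 nM (1 to 6), 355 from 5 to 50 nM (223 to 557) and 65 from 50 to 500 nM (26 to 228). Falls numbered 125 at 0.5 nM (12 to 278), 232 at 5 nM (88 to 531), 12 from 0.5 to 5 nM (6 to 23), 324 from 5 to 50 nM (197 to 572) and 244 from 50 to 500 nM (108 to 402). Depth limits HSPB8, with 93 to 161 reads per library, more than the other 5 genes.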
